A study of Mus musculus with 9 samples.

Results

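Among mice that had all received the same AAV-Cre vector, the animals labelled obese were compared with those labelled nonobese, to ask which hypothalamic transcripts go with the weight label. The comparison takes 6 of the 9 libraries of the series, chosen by their labels alone, with 3 in each subset. The other 3 libraries, from mice given AAV-GFP, serve as a reference level and enter the estimate of the spread. All 9 animals were male C57/BL6 mice of the genotype Snord116tm1Uta/J, in which the Snord116 cluster of small nucleolar RNAs is floxed, so controls carry the floxed allele too. The virus was placed in the mediobasal hypothalamus, and fresh-frozen brains were taken 10 weeks afterwards. Cre was driven by the CAG promoter, which is not restricted to a cell type, and the region cut out by laser capture was chosen from adjacent sections stained for Cre. GFP was driven by the CMV promoter, and the paper gives a lower titre for that vector, so the reference mice also differ in promoter and dose. Each library came from 1 mouse. The labels contradict each other on the subsets. The 3 libraries whose titles hold the word obese are nonobese by weight label, while the other 3 titles, which lack the word, belong to animals labelled obese. The subsets are named here by the weight label, and every direction below would turn over if the titles were right.

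The mediobasal hypothalamus holds the arcuate nucleus, where Pomc and Agrp neurons sense leptin and other signals of energy stores, and the ventromedial nucleus. Interferons act on brain cells through JAK kinases, STAT proteins and the interferon regulatory factors, which switch on antigen presentation, large families of GTPases that attack intracellular pathogens, and sensors of viral RNA. Microglia and astrocytes answer such signals with their own programmes, which include complement, lysosomal proteases and, in astrocytes, the intermediate filament Gfap.

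Values are given as signal, a value on the scale of CPM that the authors corrected for the composition of each library. Read totals were between 4137999 and 4611358 for the obese label and between 3929672 and 5766994 for the nonobese label (2-sided p = 0.6 in an exact permutation test, n = 3 against 3). A count of 3 reads, taken as the floor, is worth a signal between 0.525 and 0.786, which covers counting error only. Differences are log2 fold changes (log2 FC) of obese over nonobese on the log2(signal + 1) scale, which understates the change of genes with low signal, and an entry is called when its FDR from limma is under 0.1. The targeted RNAs could not be checked, since 0 of the 17 annotated Snord116 genes have an entry in the table. The Cre transcript measured 1330, 8557 and 235 in replicates 1, 2 and 3 labelled obese and 4644, 5136 and 7064 in those labelled nonobese. Replicates 1 and 3 labelled obese were thus below every nonobese-labelled mouse and replicate 2 above all of them (exact permutation test of the signal, 2-sided p = 0.5, n = 3 against 3, for which no p under 0.1 can be reached). In AAV-GFP mice Cre did not exceed a signal of 0.957.

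Many of the genes that were higher with the obese label are known interferon targets, and some carry upstream a motif known to bind complexes of STAT and IRF proteins. The examples shown were picked from genes called higher with the obese label. They come from the RefSeq promoters of GRCm38.p6 and are written 5′ to 3′ on the strand of the gene, with the interferon-stimulated response element core (GAAA, any 2 bases and GAAA again, searched on both strands) in capitals.
Igtp, chr11:58199496-58199555: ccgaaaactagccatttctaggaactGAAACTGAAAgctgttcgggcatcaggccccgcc
Gbp7, chr3:142530263-142530322: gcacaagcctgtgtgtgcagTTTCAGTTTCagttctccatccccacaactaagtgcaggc
Gbp2, chr3:142620584-142620643: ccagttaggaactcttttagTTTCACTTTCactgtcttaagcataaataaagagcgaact
Gbp3, chr3:142559979-142560038: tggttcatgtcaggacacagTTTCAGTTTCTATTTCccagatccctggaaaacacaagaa
B2m, chr2:122147528-122147587: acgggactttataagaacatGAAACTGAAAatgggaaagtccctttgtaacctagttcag
Ctss, chr3:95526726-95526785: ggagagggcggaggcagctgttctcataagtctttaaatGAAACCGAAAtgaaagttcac
All of these genes lie on the plus strand, and the motif reads as its reverse complement in the 3 Gbp genes, where Gbp3 holds a pair of overlapping copies. The core also lay before genes that were not called, among them Irgm1, Ifit1, Pcsk1, Sst, Esr1 and Bdnf. Of the 12 called entries with the largest rise without overlap, promoters were matched for 5, and 2 of these held the core (Igtp and Gbp7). Promoters were matched for 71 of the 99 genes called higher. The 250 bases before the start held the core in 11 of their 85 promoters (12.9%), in 1 of 27 promoters (3.70%) of genes called lower, in 2.64% of the promoters of all tested entries and in 2.98% of all 32851 promoters. The gamma-activated site, which binds STAT dimers (TTC, any 3 bases and GAA, whose matches may share bases with the first motif), was in 8.24%, 7.41%, 5.69% and 7.02% of the same sets. These are matches of letters, not tests of binding.

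Of 13506 entries tested, 99 were higher with the obese label (0.733%) and 29 were lower (0.215%), and 1539 had an unadjusted p under 0.05. The median log2 FC of all tested entries was -0.02. The subsets did not overlap for 81 of the 99 and 28 of the 29, against 6.65% of all entries lying higher and 6.61% lower without overlap. Called entries were picked by the difference between these same mice, so their lack of overlap largely follows from that choice. The rise was not even across the obese-labelled mice. Replicate 2 was the lowest of its subset in 95 of the 99 entries. Above the mean of nonobese-labelled mice, the median distance over the 99 entries was 3.62 on the log2 scale in replicate 1, 1.19 in replicate 2 and 3.55 in replicate 3, and in 34 of them replicate 2 did not exceed the highest AAV-GFP mouse. Among the 29 lower entries the 3 mice were closer, at -1.16, -1.04 and -1.74. The AAV-GFP mean was nearer to the nonobese-labelled mean for 90 of the 99 entries and 27 of the 29. Of the genes in 50 lists of pathways and cell types, 716 were tested, with 60 called higher and 6 lower. The 159 genes tested in the immune lists held 44 of the higher calls and 0 of the lower ones by limma, and edgeR and DESeq2 called no immune gene lower either. The median log2 FC of these 159 genes was 2.47. The lists were chosen with earlier results of these data known, so the share of calls within them partly follows from that choice.

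**Figure D1:**
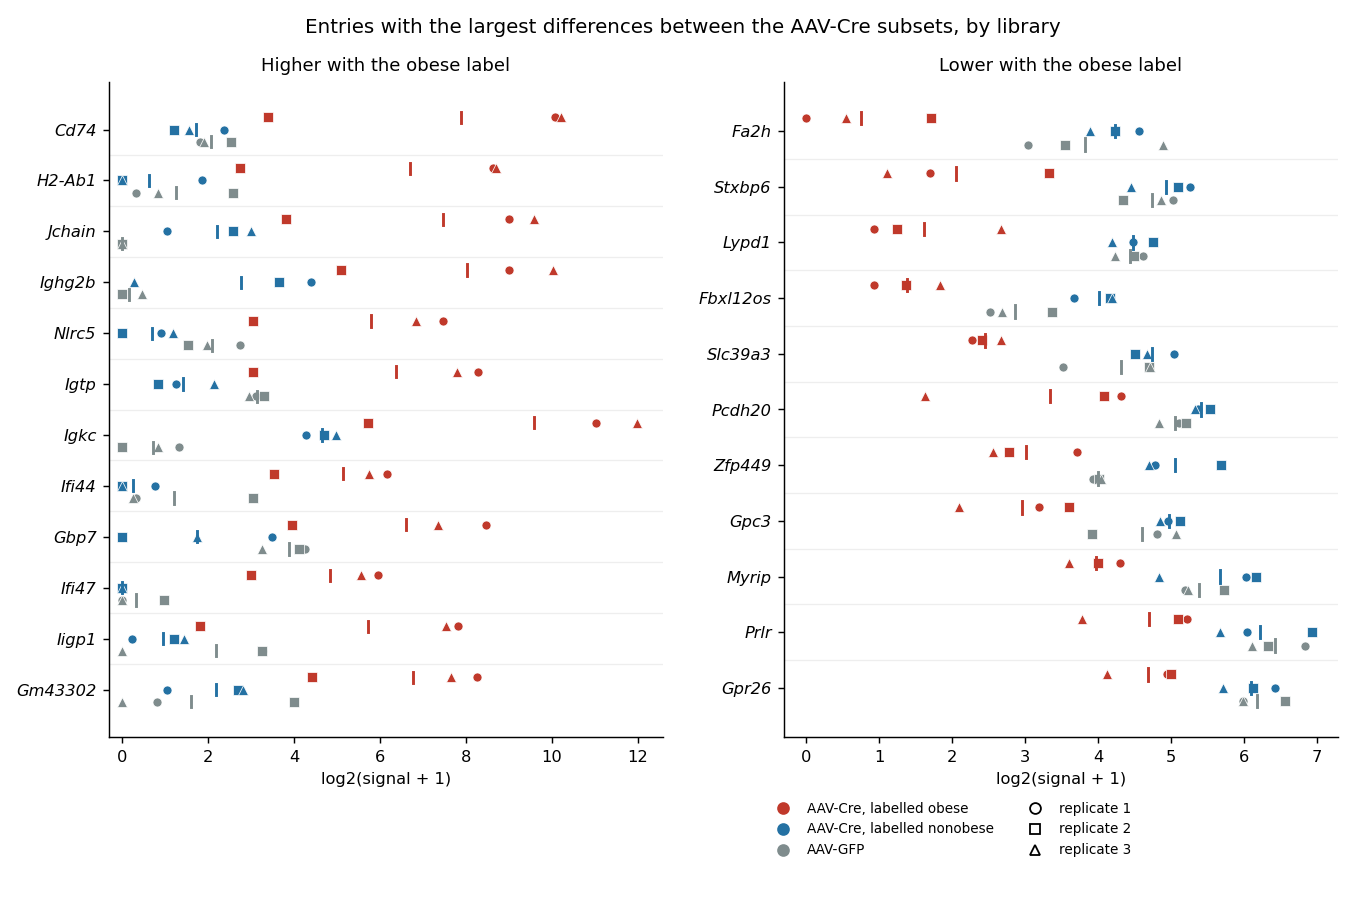
Log2(signal + 1) in each of the 9 libraries for entries with the largest differences in each direction among called entries whose subsets do not overlap (12 higher and 11 lower). Points are mice (marker shape gives the replicate number) and vertical bars are means. In the left panel replicates 1 and 3 labelled obese lie far to the right and replicate 2 lies close to the other groups, while in the right panel the 3 obese-labelled mice lie nearer to each other.

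Antigen presentation by MHC class II held the largest differences outside the antibody genes. Cd74, the invariant chain that chaperones class II molecules, measured 1076, 9.53 and 1186 in replicates 1, 2 and 3 labelled obese. It was 4.20, 1.31 and 1.92 in nonobese-labelled mice and did not exceed 4.79 in AAV-GFP mice (log2 FC 6.18, SE 1.046, FDR = 0.00668). H2-Ab1, the class II beta chain (chromosome 17 from 34257689 to 34269419), measured 397, 5.67 and 412 against 2.62, 0 and 0, and 4.98 in the highest AAV-GFP mouse. For both genes replicate 2 was far below replicates 1 and 3, yet above the nonobese-labelled mice. All 7 tested genes of the class II list were higher in mean, 2 of them called, with a median log2 FC of 4.54. Without replicate 1 or without replicate 3 labelled obese, 5 of them still passed the filter (a signal of 1 in 3 libraries). The direction of the rest thus partly follows from the filter.

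MHC class I molecules show peptides from inside the cell to cytotoxic T cells, and 10 of the 21 tested genes of this list were called higher and 0 lower. Nlrc5, the transactivator of class I genes, had a log2 FC of 5.08 (SE 0.89, FDR = 0.00683), with a signal of 176, 7.26 and 113 in obese-labelled mice and at most 1.28 in nonobese-labelled mice. H2-K1, a class I heavy chain (chromosome 17 from 33996017 to 34000347), measured 814, 58.1 and 762 in obese-labelled mice. Against 13.8, 10.2 and 33.9 in nonobese-labelled mice and at most 29.5 in AAV-GFP mice, this is a log2 FC of 4.21 (SE 0.62, FDR = 0.0029), and all 3 obese-labelled mice lay above every other mouse. H2-D1 (3.07), H2-Q6 (4.55) and H2-Q7 (4.09) had log2 FCs on the same side, but class I genes are close in sequence and their reads could have been split between them. Psmb8, a subunit of the immunoproteasome that cuts peptides for class I, had a log2 FC of 3.81. For B2m, the light chain of class I (chromosome 2 from 122147686 to 122153083), the subsets overlapped, with 1068, 84.4 and 1153 against 64.9, 65.2 and 90.7 (log2 FC 2.68, FDR = 0.0201). The median log2 FC of the list was 2.76, beside -0.02 for all entries.

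The interferon-inducible GTPases, which coat and break the vacuoles of intracellular pathogens, held 6 called genes of 12 tested and 0 called lower, with a median log2 FC of 3.77. Igtp (chromosome 11 from 58199556 to 58207591, shown above with a match to the motif) measured 309, 7.26 and 220.5 in obese-labelled mice and 1.40, 0.786 and 3.41 in nonobese-labelled mice (log2 FC 4.96, SE 0.87, FDR = 0.00726). In AAV-GFP mice it was between 6.797 and 8.81, so replicate 2 labelled obese lay within the AAV-GFP range and the nonobese-labelled mice lay below it. Igtp overlaps Irgm2 on the same strand. Gbp7 was alike in order among obese-labelled mice, with 355, 14.5 and 163 against at most 10.2, and with replicate 2 inside the AAV-GFP range of 8.55 to 18.2. Gbp3 and Gbp2 had log2 FCs of 3.72 and 5.05, and for Gbp2 the highest nonobese-labelled mouse (7.47) passed replicate 2 labelled obese (7.26). Ifi47 had 0 reads in every nonobese-labelled mouse and a signal of 60.7, 7.04 and 46.2 in obese-labelled mice. Taken against 3 reads in the library where a read is worth most, its mean was at least 48.4-fold higher. No mouse outside the obese label reached a signal of 1 for Ifi47. It thus passed the filter only through the 3 obese-labelled mice, which fixed its direction and its lack of overlap. Iigp1 followed with a log2 FC of 4.76 (FDR = 0.0514), and Gm43302, whose locus also holds Gbp6 and Gbp10, with 4.59. Irgm1, a regulator of the family, had 250.2 and 192 in replicates 1 and 3 but 1.36 in replicate 2, below all nonobese-labelled mice, and was not called (FDR = 0.439).

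Antiviral effectors of the type I interferon response had a median log2 FC of 2.50 over 30 tested genes, of which 10 were called higher and 0 lower. Ifi44 measured 70.4, 10.7 and 52.5 in obese-labelled mice, and among the others it exceeded 1 in a single AAV-GFP mouse (7.28). Its log2 FC was 4.89 (SE 0.91, FDR = 0.00879). Oasl2, of the oligoadenylate synthetase family, had a log2 FC of 4.52 (FDR = 0.00668), with replicate 2 at 24.96 below an AAV-GFP mouse at 40.4. Parp14 and Parp9, which modify proteins with ADP-ribose, had log2 FCs of 3.35 and 3.04, and Trim30a had 3.45. Ifit1, which binds viral RNA, had 211, 5.22 and 138 against 5.77, 23.05 and 4.69 and was not called. Of 13 sensors of nucleic acids and their adaptors 1 was called, Ddx58 (RIG-I, log2 FC 2.14, SE 0.50, FDR = 0.0503).

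Of 17 JAK, STAT and IRF genes, which act upstream in interferon signalling, 4 were called higher and 0 lower, with a median log2 FC of 1.15. Irf7, a regulator that amplifies interferon production, measured 73.6, 22.7 and 66.4 against at most 4.37 (log2 FC 3.90, SE 0.68, FDR = 0.00683). Irf1 had a log2 FC of 3.57, and for neither gene did the subsets overlap, although Irf7 shares its locus with Phrf1 on the other strand. Stat3, the mediator of leptin and interleukin 6 signals, had 178, 87.4 and 204 against 75.8, 60.8 and 61.9 (log2 FC 1.15, SE 0.26, FDR = 0.0386), but replicate 2 was below the lowest AAV-GFP mouse (93.3). Socs3, the feedback inhibitor that Stat3 induces, measured a signal of 30.1, 20.4 and 3.95 in obese-labelled mice and 4.90, 7.07 and 3.20 in nonobese-labelled mice. Here replicate 3 and not replicate 2 was the low one, and the difference did not pass (log2 FC 1.35, FDR = 0.53). Of 7 tested SOCS genes 0 were called by limma, edgeR or DESeq2, and 0 had an unadjusted p under 0.05.

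Few chemokines and cytokines passed the limma test. Cxcl16, a chemokine that draws T cells, was the 1 called of 9 chemokines tested (45.4, 3.40 and 35.3 against 3.32, 1.048 and 0, FDR = 0.0941). In AAV-GFP mice it was 4.08 to 8.98, above replicate 2 labelled obese and above every nonobese-labelled mouse. The chemokine list had a median log2 FC of 3.18, with 6 genes higher and 0 lower at an unadjusted p under 0.05. DESeq2 called 4 chemokines higher, edgeR's quasi-likelihood test 3 and its likelihood ratio test 4, and each called 0 lower. Cxcl9, induced by interferon gamma, measured 132 and 64.6 in replicates 1 and 3 and 0 in replicate 2, and was not called. Of 5 cytokines tested and 14 receptors for interferons and cytokines, 0 were called by limma, with 3 and 5 higher at an unadjusted p under 0.05. DESeq2 and edgeR's quasi-likelihood test called 0 of either, and edgeR's likelihood ratio test 1 receptor. Ifng, Tnf, Il1b and Il6 were among the 10 listed cytokines without an entry. Complement held 3 called genes of 9 tested, with a median log2 FC of 2.69. C4b measured 304, 32.5 and 368 against 7.70, 16.0 and 13.2 (log2 FC 3.60, SE 0.62, FDR = 0.00683), and C1qb and C1qa, subunits of the C1q recognition molecule, had 2.69 and 2.50, although the subsets overlapped for C1qa.

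Antibody genes separated the mice in the same order but at another level. Igkc, the kappa light chain (chromosome 6 from 70726435 to 70726966), measured 2074, 52.2 and 4033 in obese-labelled mice. It was 18.6, 24.9 and 30.5 in nonobese-labelled mice and at most 1.496 in AAV-GFP mice, so that all 6 AAV-Cre mice lay above the controls (log2 FC between the subsets 4.92, SE 0.87, FDR = 0.00726). Ighg2b (515, 32.9 and 1034 against 20.1, 11.5 and 0.213) and Jchain (513, 13.2 and 768 against at most 7.04) had log2 FCs of 5.26. For Ighg2c, with the highest log2 FC of the called entries (6.54), replicate 3 labelled nonobese at 72.3 passed replicate 2 labelled obese at 54.5. In all, 4 of 7 immunoglobulin genes were called, and their constant regions share sequence. The mean log2(signal + 1) of these 7 genes was 8.78, 3.36 and 9.32 in obese-labelled mice, 2.12, 2.24 and 2.67 in nonobese-labelled mice and between 0.43 and 0.54 in AAV-GFP mice.

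In the marker lists of leukocytes, some genes shared by many of these cells passed the limma test and those listed for single cell types did not. The antibody genes above, of which 4 were called, were listed apart from these markers. In these bulk samples more cells of a type and more RNA per cell cannot be told apart. Of 14 pan-leukocyte genes 4 were called higher, among them the integrin Itgb2 (53.8, 18.4 and 56.7 against 6.65, 3.93 and 3.20, log2 FC 2.87, FDR = 0.0245), Cd53 and Laptm5, genes that microglia also express. Ptprc, which encodes CD45, had 58.0, 3.63 and 58.8 against 10.2, 3.67 and 1.71 and was not called (FDR = 0.269). The summed signal of this list was between 121 and 618 in obese-labelled mice, between 58.9 and 103 in nonobese-labelled mice, and between 103 and 116 in AAV-GFP mice. Of the T and NK cell (5), plasma and B cell (4) and monocyte and neutrophil (4) markers tested, 0 were called by limma, with 1, 2 and 2 higher at an unadjusted p under 0.05. DESeq2 and edgeR's quasi-likelihood test each called 1 of these genes, a monocyte and neutrophil marker, and edgeR's likelihood ratio test 1 in each list. Their summed signals were 80.1, 13.2 and 52.3 for T and NK cells, 21.8, 13.2 and 70.9 for plasma and B cells, and 152, 4.77 and 234 for monocytes and neutrophils in replicates 1, 2 and 3 labelled obese. In nonobese-labelled mice they did not exceed 14.4, 7.68 and 9.82. Without replicate 1 labelled obese, 3, 3 and 3 of these markers still passed the filter on signal, and without replicate 3, 3, 2 and 3. The direction of the rest thus partly follows from the filter. Cd3e had 0 reads in replicate 2 labelled obese and in every nonobese-labelled mouse, while Cd4, Trac, Ms4a1, Ccr2, S100a8 and S100a9 had no entry. The part of these cells in the other differences was not tested, and so was that of Cre, which was lowest in the mice with the highest immune signal. The 5 genes of the haemoglobin list were haemoglobin chains and Alas2, an enzyme of haem synthesis. Of these, 0 were called by limma, edgeR or DESeq2 and 0 had an unadjusted p under 0.05. Their summed signals were 17.3 to 38.6 in obese-labelled mice and 31.2 to 42.9 in nonobese-labelled mice.

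**Figure D2:**
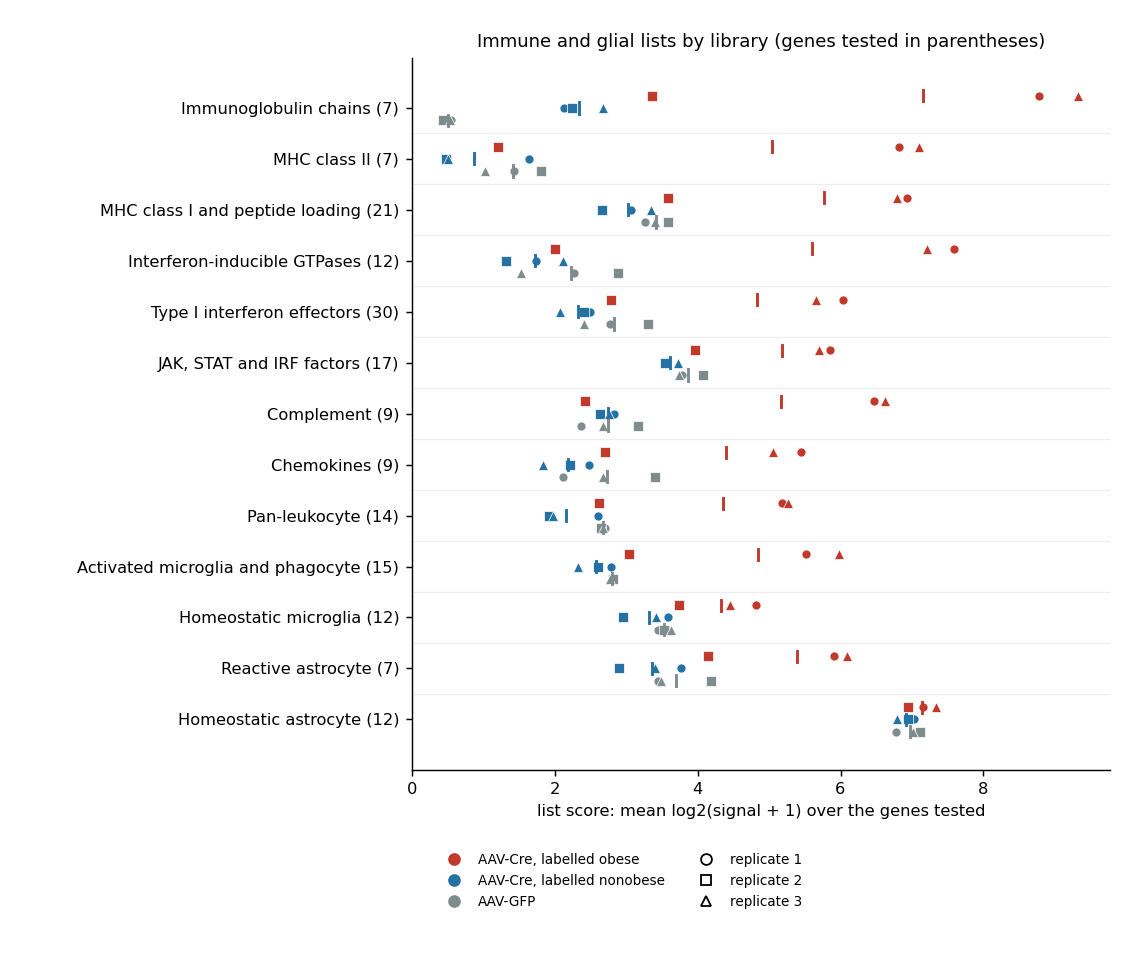
List score, the mean log2(signal + 1) over the tested genes of a list, in each of the 9 libraries for immune and glial lists. Points are mice (marker shape gives the replicate number) and vertical bars are group means. Replicates 1 and 3 labelled obese stand to the right in every list shown, by a small margin for homeostatic astrocytes, and in the immunoglobulin list all AAV-Cre mice lie above the AAV-GFP mice.

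Resident microglia and phagocyte genes showed a graded picture. Of 15 genes of activated microglia and phagocytes 3 were called higher and 0 lower (median log2 FC 2.47), and of 12 homeostatic microglial genes 1 was called (median 1.0). Without replicate 1 or without replicate 3 labelled obese, 12 of the 15 activated genes still passed the filter on signal. The direction of the rest thus partly follows from the filter. Ctss, a lysosomal protease of microglia and antigen-presenting cells (chromosome 3 from 95526786 to 95556403), measured 669, 103 and 803 in obese-labelled mice. It was 95.7, 62.3 and 52.9 in nonobese-labelled mice and between 67.6 and 74.1 in AAV-GFP mice (log2 FC 2.47, SE 0.44, FDR = 0.00726). Axl, a receptor for dying cells, had a log2 FC of 2.23 and Apoe, the main lipid carrier of the brain, of 0.91. Csf1r, the receptor that keeps microglia alive, was the homeostatic gene called (133, 42.9 and 129 against 46.4, 26.5 and 25.8, with overlap, log2 FC 1.48, FDR = 0.0747). P2ry12, the receptor that marks resting microglia, had 9, 18.8 and 7.202 against 5.77, 11.8 and 5.12, and its order among obese-labelled mice was opposite to that of Ctss (log2 FC 0.54, FDR = 0.785). Lysosomal genes had a median of 0.89, with 2 of 14 called.

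Of 7 genes of reactive astrocytes 4 were called higher and 0 lower, with a median log2 FC of 1.85. Gfap (chromosome 11 from 102887336 to 102900912) measured 369, 129.8 and 640.0 in obese-labelled mice and 60.02, 22.8 and 17.7 in nonobese-labelled mice. All 3 obese-labelled mice were above the highest AAV-GFP mouse (83.0), and the log2 FC was 3.39 (SE 0.55, FDR = 0.00668). Serpina3n, a protease inhibitor induced in reactive astrocytes (chromosome 12 from 104406729 to 104414329), had the lowest FDR of all entries, 0.00109. Its signal was 211, 168 and 220.5 in obese-labelled mice, 66.0, 37.7 and 24.3 in nonobese-labelled mice, and between 50.9 and 103 in AAV-GFP mice (log2 FC 2.31, SE 0.31). Replicate 2 was close to the other obese-labelled mice for this gene, although its relatives in the Serpina3 cluster are similar in sequence. Cd44 and Vim, also called, had log2 FCs of 4.15 and 1.85, the latter with overlap of the subsets. Of 12 genes of homeostatic astrocytes 1 was called, the water channel Aqp4 (245, 123 and 339 against 110.4, 113 and 80.2, log2 FC 1.11), and the median of the list was 0.14.

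Serpina3n was 1 of 20 entries among the 99 for which replicate 2 lay within 1 log2 unit of the mean of replicates 1 and 3, a division made after the values were seen. Some of these 20 are immune genes, such as Parp9 above and Nfkb1, a subunit of NF-kappaB (log2 FC 1.63), and others are not. Vgf, a secreted neuropeptide precursor linked to energy balance (chromosome 5 from 137026392 to 137033351), measured 219, 186 and 213 against 126, 46.9 and 88.3 (log2 FC 1.34, SE 0.28, FDR = 0.0245). Against AAV-GFP mice, at 73.6 to 155, the obese-labelled mice were higher in 3 of 3. Trh, thyrotropin-releasing hormone, had 30.6, 30.2 and 69.5 against 12.6, 1.57 and 8.54 (log2 FC 2.57, SE 0.64, FDR = 0.0699) and was at most 13.6 in AAV-GFP mice. The quasi-likelihood test of edgeR did not call Trh (FDR = 0.118). Igfbp5, which binds insulin-like growth factors, had a log2 FC of 1.25 (306, 171 and 321 against 119, 121 and 85.6, FDR = 0.00786). Fn1, the matrix protein fibronectin, had 1.38 (85.9, 73.8 and 94.8 against 44.3, 31.2 and 23.3). Vgf was the 1 called of 14 genes of prohormone processing and granins, Trh of 9 other hypothalamic peptides, Igfbp5 of 8 IGF system genes and Fn1 of 10 mural cell and fibroblast genes. In these 4 lists limma called no gene lower, while edgeR's likelihood ratio test called 1 of the other hypothalamic peptides lower.

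The 29 entries that were lower with the obese label included neuronal, myelin and mitochondrial genes, and 6 of them were in the lists of pathways and cell types. Fa2h, which makes the hydroxylated fatty acids of myelin lipids (chromosome 8 from 111345135 to 111393824), measured 0, 2.27 and 0.465 in obese-labelled mice. It was 22.6, 17.8 and 13.9 in nonobese-labelled mice and between 7.23 and 28.5 in AAV-GFP mice (log2 FC -3.48, SE 0.71, FDR = 0.0204). Stxbp6, a regulator of SNARE assembly, had 2.25, 9.08 and 1.16 against 37.3, 33.3 and 20.9 (log2 FC -2.89, SE 0.57, FDR = 0.0149). Lypd1, of the Ly6 family that binds nicotinic receptors, had 0.900, 1.36 and 5.34 against 21.4, 25.9 and 17.3 (log2 FC -2.86, FDR = 0.0221), and its locus overlaps Gpr39 on the other strand. For all 3 genes every obese-labelled mouse was below every mouse of both other groups. Fbxl12os, annotated as an antisense gene and overlapped on the other strand by Gm26521 and Gm48069, had a log2 FC of -2.64, but its AAV-GFP mice, at 4.74 to 9.38, lay between the subsets. Slc39a3, a zinc importer, had 3.82, 4.31 and 5.34 against 32.0, 21.7 and 24.5 (log2 FC -2.29, FDR = 0.0424). Pcdh20, Zfp449, Gpc3 and Myrip had log2 FCs between -2.07 and -1.71, and Gpr26 of -1.40. The quasi-likelihood test of edgeR did not call Fbxl12os (FDR = 0.11) or Pcdh20 (FDR = 0.199).

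Prlr, the prolactin receptor (chromosome 15 from 10177238 to 10349180), was the 1 called of 19 receptors for appetite signals. Its signal was 36.4, 33.1 and 12.8 in obese-labelled mice, 65.1, 122 and 50.1 in nonobese-labelled mice, and between 68.2 and 114 in AAV-GFP mice (log2 FC -1.52, SE 0.36, FDR = 0.0569). The quasi-likelihood test of edgeR did not call Prlr (FDR = 0.107). The receptor list had a median log2 FC of -0.52, with 14 of 19 genes negative. Slc17a6, the vesicular glutamate transporter of hypothalamic excitatory neurons, had 76.0, 146 and 84.3 against 174, 285 and 175 (log2 FC -1.06, SE 0.24, FDR = 0.0328) and did not overlap with the AAV-GFP range of 169.5 to 208 either. Slc32a1, which loads GABA into vesicles, had 66.4, 50.4 and 37.4 against 49.9, 25.9 and 40.8 (log2 FC 0.41, FDR = 0.677). Thy1, a surface protein of neurons, was called lower by limma (108, 179 and 90.4 against 245, 222 and 211, log2 FC -0.90) but not by edgeR's quasi-likelihood test (FDR = 0.141). Mbp, a structural protein of myelin, had a log2 FC of -0.80 without a call (FDR = 0.111).

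Several neuronal lists and the myelin list had medians below 0. The median log2 FC was -0.39 for 16 pan-neuronal genes (14 negative, 1 called), -0.27 for 14 genes of synaptic release, -0.37 for 23 ionotropic GABA and glutamate receptor subunits, -0.33 for 22 voltage-gated channels (all 22 negative) and -0.75 for 14 myelin genes (12 negative, 1 called). The list of transmitter identity, which holds Slc17a6 and Slc32a1, had a median of 0.28 with 6 of 10 genes positive, which was -0.03 by edgeR's quasi-likelihood test. The negative medians kept their sign when libraries were centred on their medians or quantile normalized. For synaptic release, receptor subunits and channels limma called 0 genes, edgeR's quasi-likelihood test 0, and edgeR's likelihood ratio test 1 higher for synaptic release and 1 lower for receptor subunits. DESeq2 called 1 higher and 1 lower for synaptic release, 2 lower for receptor subunits and 0 channels. At an unadjusted p under 0.05, 5, 5 and 5 genes were lower and 1, 0 and 0 higher. The mean log2(signal + 1) of the pan-neuronal list was 7.70, 8.06 and 7.52 in the obese-labelled mice 1, 2 and 3, 8.13, 8.21 and 8.03 in nonobese-labelled mice and between 7.91 and 8.15 in AAV-GFP mice. Replicates 1 and 3 were lowest in this score and highest in the immune scores.

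**Figure D3:**
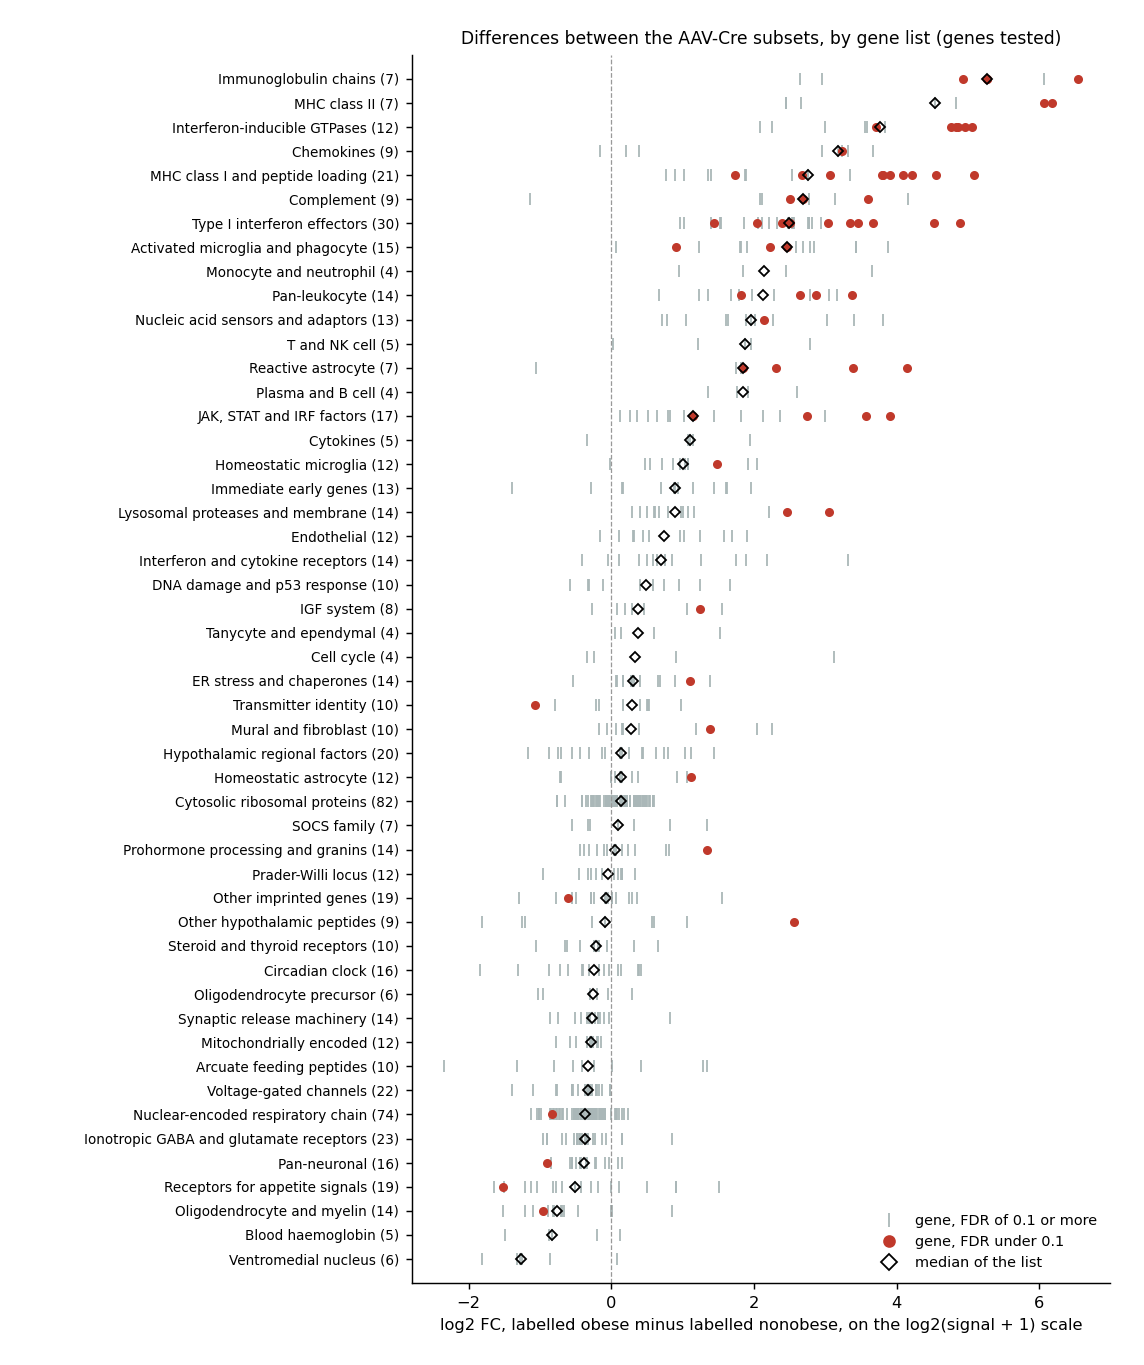
Log2 FC of obese over nonobese label for each tested gene of 50 lists, ordered by the median of the list. Ticks are genes with an FDR of 0.1 or more, filled circles are genes with an FDR under 0.1 and diamonds are medians. Immune lists lie at the top with medians up to 5.26, and the ventromedial nucleus list lies at the bottom with -1.27 and no called gene.

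The genes of the arcuate feeding circuit did not pass the test between the subsets. Of 10 arcuate peptides 0 were called by limma, edgeR or DESeq2, with 1 higher and 2 lower at an unadjusted p under 0.05. Agrp, which drives feeding, had 0 reads in replicates 1 and 3 labelled obese and a signal of 8.85 in replicate 2, against 3.67, 17.8 and 13.9 (log2 FC -2.35, SE 0.92, FDR = 0.311). Pomc, the source of the satiety peptide alpha-MSH, ran from 4.65 to 82.8 in obese-labelled mice and from 12.8 to 92.5 in nonobese-labelled mice (log2 FC -0.80, FDR = 0.749). Npy (-0.53), Lepr (1.51), Pcsk1 (-0.38) and Nhlh2 (0.81) had FDRs between 0.372 and 0.745. In the ventromedial nucleus list, with a median of -1.27, limma, edgeR and DESeq2 called 0 of 6 genes, and 2 were lower at an unadjusted p under 0.05. Its defining gene Nr5a1 had 0 reads in replicates 1 and 3 labelled obese and in replicate 3 of nonobese-labelled mice and of AAV-GFP mice, against a signal of 15.2 to 46.1 elsewhere. The score of this list was 1.72, 4.10 and 1.64 in obese-labelled mice and 3.91, 4.51 and 2.27 in nonobese-labelled mice. These markers of the ventromedial nucleus thus differed widely within both subsets, and the part of the captured area in the other differences was not tested.

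Imprinted genes around the floxed cluster did not pass the test between the subsets. Of 12 genes of the Prader-Willi locus 0 were called by limma, edgeR or DESeq2, 1 was lower at an unadjusted p under 0.05, and the median was -0.05. Herc2, a ubiquitin ligase gene near this region, had a log2 FC of -0.21 (SE 0.16). Of 19 other imprinted genes 1 was called, the noncoding RNA Rian (chromosome 12 from 109603940 to 109661716), which hosts another cluster of small nucleolar RNAs. Its signal was 328, 459 and 369.6 in obese-labelled mice, 619, 579.6 and 549 in nonobese-labelled mice, and between 576 and 661 in AAV-GFP mice (log2 FC -0.61, SE 0.15, FDR = 0.0721). All obese-labelled mice were below all others for Rian, which edgeR's quasi-likelihood test did not call (FDR = 0.119).

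Genes of the respiratory chain leaned one way with small differences. Of 74 nuclear-encoded subunits 67 had a negative log2 FC, with a median of -0.36, and 1 was called, Cox8a of cytochrome oxidase (94.5, 97.8 and 98.04 against 141, 188 and 193, log2 FC -0.83, SE 0.20, FDR = 0.064). For 21 of the 74 the obese label lay lower without overlap of the subsets, against 6.61% of all entries tested. All 12 mitochondrially encoded messenger RNAs were negative, with a median of -0.28, and limma and edgeR called 0 of them, DESeq2 1, and 4 had an unadjusted p under 0.05. The mitochondrial tRNA mt-Tq was called (87.3, 63.5 and 45.1 against 138, 204 and 126, log2 FC -1.26, SE 0.25, FDR = 0.0161), although mt-Ti overlaps it on the other strand. The nuclear score was 5.62, 5.74 and 5.56 in obese-labelled mice and 5.93, 6.07 and 6.11 in nonobese-labelled mice, with AAV-GFP mice between at 5.76 to 5.85. Of 82 ribosomal protein genes 0 were called by limma or edgeR and 1 by DESeq2, with 10 higher and 2 lower at an unadjusted p under 0.05 and a median of 0.13. Eef1a1, the elongation factor that brings tRNA to the ribosome, was the called entry with the smallest rise (933, 982 and 979.9 against 696, 707.2 and 628, log2 FC 0.51, SE 0.13, FDR = 0.0842). The quasi-likelihood test of edgeR did not call Eef1a1 (FDR = 0.105).

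**Figure D4:**
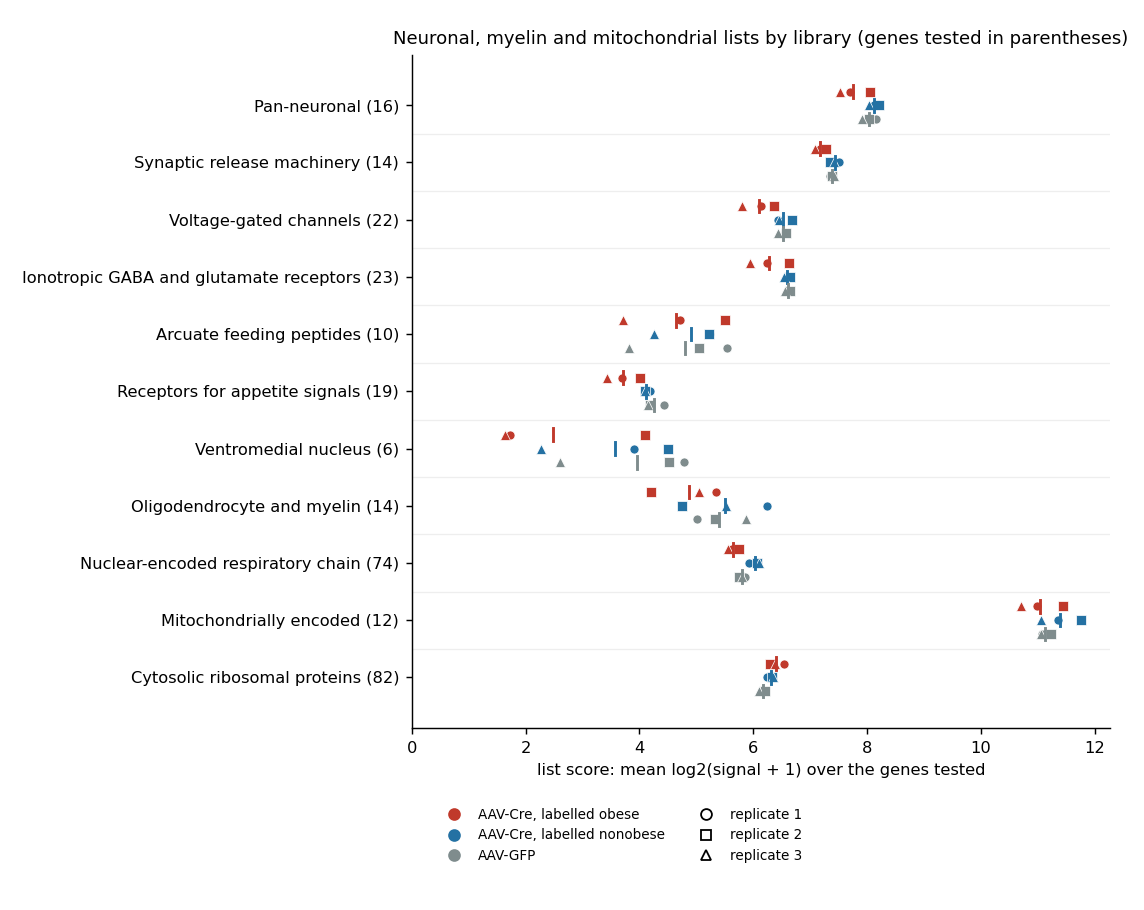
List score, the mean log2(signal + 1) over the tested genes of a list, in each of the 9 libraries for neuronal, myelin, mitochondrial and ribosomal lists. Points are mice (marker shape gives the replicate number) and vertical bars are group means. The ventromedial list spreads most widely, from 1.64 to 4.78, and the nuclear respiratory chain list places all obese-labelled mice below all nonobese-labelled mice.

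Other programmes held few calls. Pdia4, a folding enzyme of the endoplasmic reticulum, was the 1 called of 14 genes of ER stress (228, 122 and 267 against 121, 76.7 and 79.4, log2 FC 1.10, FDR = 0.0484), while Hspa5, the main chaperone of that compartment, had 0.29. For immediate early genes (13 tested), clock genes (16), DNA damage genes (10), endothelial genes (12) and cell cycle genes (4), limma called 0. At an unadjusted p under 0.05 these lists held 3, 0, 2, 2 and 1 genes higher and 0, 3, 0, 0 and 0 lower, and DESeq2 called 1, 0, 2, 1 and 1, all higher. The likelihood ratio test of edgeR called 1 in each of these lists but that of the clock, where it called 0. For steroid and thyroid receptors (10), hypothalamic regional factors (20), oligodendrocyte precursor genes (6) and tanycyte genes (4), limma, edgeR and DESeq2 called 0. At an unadjusted p under 0.05 these lists held 1, 1, 0 and 0 genes higher and 0, 0, 1 and 0 lower. Mki67, a mark of dividing cells, had 40.3 and 23.7 in replicates 1 and 3 labelled obese but 0.908 in replicate 2, and did not exceed 2.49 in any mouse of the other groups (FDR = 0.21).

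The count of calls rested on the obese-labelled mice. Without replicate 1 of this subset 1 entry was called higher, Serpina3n, and 1 lower, mt-Tq. Without replicate 3, 2 were higher, Serpina3n and H2-K1, and Lypd1 was lower. Without replicate 2, 557 were higher and 349 lower. Leaving out a mouse of the other groups gave 47 to 80 higher and 7 to 18 lower. All 128 called entries kept their direction in every one of the fits that left out a mouse and still tested them.

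**Figure D5:**
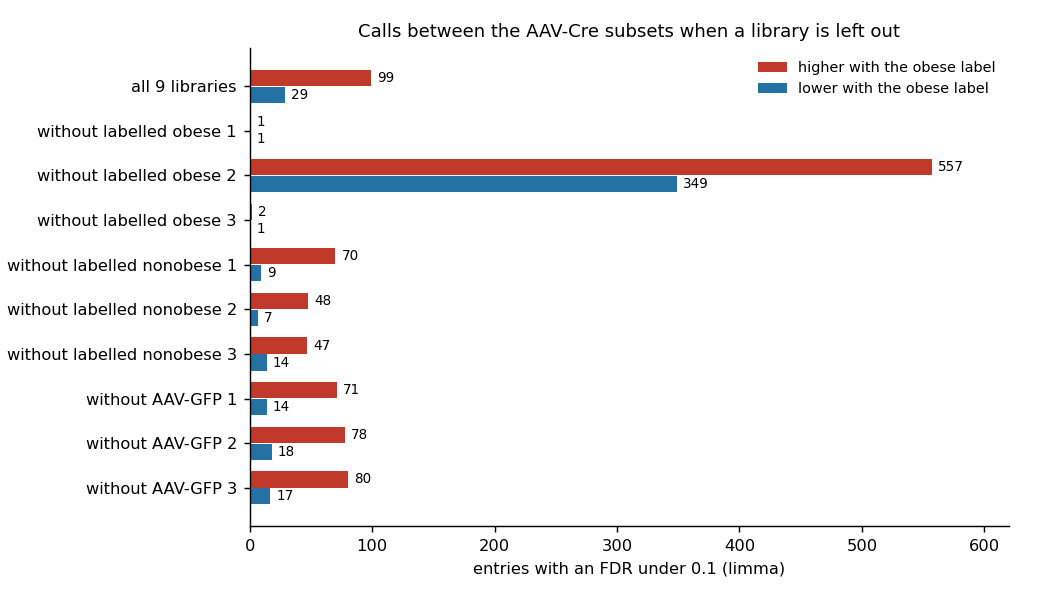
Number of entries with an FDR under 0.1 in limma between the AAV-Cre subsets, higher or lower with the obese label, with all 9 libraries and with each library left out in turn. The counts were 99 and 29 with all libraries, 557 and 349 without replicate 2 labelled obese, and at most 2 without replicate 1 or 3 of that subset.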

How the data were processed

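Laser-captured mediobasal hypothalamus of 9 mice was sequenced with the Takara Pico SMARTer Stranded kit. Per the submitters' processing notes, CASAVA 1.7, TopHat2 2.0.11, HTSeq, edgeR and limma were used with GRCm38. The HTSeq strand setting is not given in the sources used here, so a gene and an antisense partner may share reads. The authors deposited signal, reads divided by a TMM-scaled library size and multiplied as in CPM (sums of 954378 to 1046542 per library). The values of each library were whole multiples of the signal of 1 read for 100% of entries (tolerance 0.05 reads), and those reads were recovered. The table has 13588 entries, of which 13446 have a symbol and position in GENCODE M21.

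Entries whose signal reached 1 in 3 or more libraries were compared by limma 3.58.1 (R 4.3.3) on log2(signal + 1), with all 3 groups and a variance trend in 1 fit and Benjamini-Hochberg adjustment over all entries. The design assumed CPM, and the same test was kept for signal. For Cre and the read totals an exact permutation test was used. Named genes were up to 12 called entries in each direction with the largest change and no overlap, those the paper names for this experiment, and in each list its defining gene and called genes (up to 6) or the 3 with the lowest p. The comparison, members and lists were chosen with earlier results of these data known. Alternatives were a pseudocount of 0.1 or 5, a filter at 5 or none, only AAV-Cre libraries, no trend, centring, quantile normalization, a replicate block, FDR 0.05, DESeq2 1.42.0 and edgeR 4.0.16 on whole reads, and omission of each mouse in turn. In 5 simulations with 200 changed genes among 13500 tested, this fit recovered 61.2% of them (23.3% of those changed 2-fold, 69.3% at 4-fold, 91.5% at 8-fold), with 12.5% false calls. How far these rates apply to the measured libraries, where the rise was not even across the obese-labelled mice, was not tested. Since the number of reads behind a value sets its counting error, the precision is lowest for genes near the floor of 3 reads. Some genes are not reported here.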

Additional observations from a re-analysis of the deposited data

Results flagged for a closer look

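The change from AAV-GFP differed between the AAV-Cre subsets, by the direct test of one subset against the other, for 99 entries that were higher and 29 that were lower with the obese label. These are the entries described above. In 95 of the 99, replicate 2 was the lowest of the obese-labelled mice.

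Of 225 values examined over the 6 AAV-Cre libraries, 7 had a single library far from the rest, where about 11.2 such cases arise by chance (about 1 in 20). The gap of that library to its neighbour is given as a share of the whole range. Pcna stood out with 0.766 and Socs7 with 0.658, both lowest in replicate 2 labelled obese. Replicate 3 labelled obese was lowest in Sst (0.649) and Pcdh20 (0.627). Replicate 2 labelled nonobese was highest in Herc2 (0.662) and lowest in Rgs5 (0.647) and in the score of the DNA damage and p53 response list (0.658). Immune scores had no such case, since replicates 1 and 3 labelled obese lie far out together and neither is then a single distant library.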

How the results depend on the processing

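Counts of entries called higher, called lower, and called higher within the immune lists were 99, 29 and 44. A pseudocount of 0.1 gave 56, 14 and 34, and a pseudocount of 5 gave 176, 38 and 69. Fitting the 6 AAV-Cre libraries alone gave 60, 4 and 37. Without a variance trend they were 12, 3 and 4, of which 3 of the higher and 1 of the lower entries were among those reported. An FDR threshold of 0.05 left 57, 11 and 33. On the recovered reads edgeR's quasi-likelihood test called 124, 17 and 64, with 84 of the higher and 17 of the lower entries shared, its likelihood ratio test 313, 85 and 96, and DESeq2 301, 88 and 76. No filter (105, 29 and 45), a filter at 5 (81, 23 and 40), centring (90, 33 and 44) and quantile normalization (104, 31 and 46) stayed within 1.5 times. With the replicate number as a block the counts were 188, 83 and 67. The numbers come from the titles of different animals, and same-numbered mice of the subsets correlated at 0.011, 0.071 and 0.049 after subtraction of group means, so they were not taken as pairs. Leaving out each mouse in turn gave 1 to 557 higher, 1 to 349 lower and 0 to 123 immune entries, the lowest without replicate 1 and the highest without replicate 2 labelled obese. No entry was called in all 13 of the settings other than those that left out a single mouse, and 101 of the 128 were also called by the quasi-likelihood test. The cause of these shifts was not tested.

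Of 174 named genes, 9 changed direction under some setting, none of them called. Over the fits that left out a mouse, the log2 FC ran from -1.66 to 0.30 for Pomc, -0.50 to 0.039 for Pdgfra, -0.073 to 0.32 for Rgs5, -0.42 to 0.21 for Esr1, -0.28 to 1.77 for Fos, -0.66 to 0.13 for Pcna, -0.10 to 1.84 for Cdkn1a, -0.80 to 1.11 for Dio2 and -2.71 to 0.069 for Nr5a1. A pseudocount of 0.1 gave Dio2 -0.19, and Nr5a1 was 0.55 by both edgeR tests and 0.56 by DESeq2. The medians of the regional factor and prohormone lists, near 0, also changed sign with scaling.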
